A study of Mus musculus with 6 samples.

Results

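The genes described here encode the major histocompatibility complex (MHC) molecules of the mouse and the proteins that load them with peptide. They were chosen by name: every listed gene whose symbol starts with H2-, the prefix of the mouse complex, and B2m, Tap1, Tap2, Tapbp, Tapbpl, Erap1, Cd74, Ciita, Nlrc5, Cd1d1 and Mr1. This took 40 of the 24379 genes in the count table, 29 of them with an H2- name and 32 on chromosome 17. RNA had been sequenced from RAW264.7 cells, a macrophage-like line grown from a tumour that Abelson leukaemia virus induced in a BALB/c mouse. In 3 libraries the cells are labelled as treated with HFCS, the high-fructose corn syrup used to sweeten food, and in 3 they carry the label WT and serve as the control. All 6 samples carry a time of 18 h. The dose of HFCS reads 140 mM in titles and treatment labels and 170 mM in source names, so which of them applied is uncertain. The sources used here do not give what the control cells received. The line is a single tumour line, and the labels do not say that libraries of a group stem from different cultures, so the tests rest on variation from library to library that could be technical.

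MHC class I molecules sit on nearly all nucleated cells and show peptides from inside the cell to CD8 T cells. Peptides cut by the proteasome are carried into the endoplasmic reticulum by the transporter of Tap1 and Tap2, trimmed by the aminopeptidase Erap1 and loaded, with the help of tapasin (Tapbp), onto a heavy chain paired with the light chain B2m. MHC class II molecules show peptides from endocytosed material to CD4 T cells: the invariant chain Cd74 holds their groove until it is degraded, and H2-DM then exchanges its last fragment for a peptide. Macrophages are known to raise class I genes, and to gain class II genes, after interferon-gamma.

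The promoters of class I genes are known for a kB element, an interferon-stimulated response element (ISRE) and the X and Y boxes that serve the class I transactivator Nlrc5 and the class II transactivator Ciita. The windows of 6 genes on which the results turn are shown, because the heavy chains H2-K1 and H2-D1 did not pass the test while their partner B2m, the peptide genes Tap1 and Erap1 and the heavy chain H2-T23 did. Each window runs from 250 bases before to 50 after a start annotated by RefSeq on GRCm38.p6, written 5′ to 3′ along the gene. Capitals mark matches on either strand to 4 short motifs: GGGGATTCC (kB), TTTCNNTTTC (ISRE), TGACG (part of the X box) and ATTGG (the Y box). No marked matches overlap each other. The windows lie at chr17:34000298-34000597 (minus strand) for H2-K1, chr17:35262844-35263143 (plus) for H2-D1, chr2:122147437-122147736 (plus) for B2m, chr17:36032652-36032951 (minus) for H2-T23, chr17:34187306-34187605 (plus) for Tap1 and chr13:74639603-74639902 (plus) for Erap1.
H2-K1: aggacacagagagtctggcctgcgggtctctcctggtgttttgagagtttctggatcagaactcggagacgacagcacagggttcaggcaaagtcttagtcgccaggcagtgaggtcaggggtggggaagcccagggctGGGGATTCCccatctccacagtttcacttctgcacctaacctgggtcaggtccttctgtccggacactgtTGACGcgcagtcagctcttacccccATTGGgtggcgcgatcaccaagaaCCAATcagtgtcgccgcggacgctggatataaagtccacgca
H2-D1: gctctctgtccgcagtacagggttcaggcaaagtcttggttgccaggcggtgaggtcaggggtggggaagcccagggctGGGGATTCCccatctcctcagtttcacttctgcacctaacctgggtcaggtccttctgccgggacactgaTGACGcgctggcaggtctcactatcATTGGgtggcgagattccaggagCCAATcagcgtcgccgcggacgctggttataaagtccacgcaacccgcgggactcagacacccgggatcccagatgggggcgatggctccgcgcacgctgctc
B2m: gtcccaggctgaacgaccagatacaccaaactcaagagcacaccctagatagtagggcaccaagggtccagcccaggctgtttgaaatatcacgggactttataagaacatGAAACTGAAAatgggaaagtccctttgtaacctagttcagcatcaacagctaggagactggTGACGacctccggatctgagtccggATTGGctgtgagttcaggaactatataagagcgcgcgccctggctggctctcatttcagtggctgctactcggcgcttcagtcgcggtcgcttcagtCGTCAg
H2-T23: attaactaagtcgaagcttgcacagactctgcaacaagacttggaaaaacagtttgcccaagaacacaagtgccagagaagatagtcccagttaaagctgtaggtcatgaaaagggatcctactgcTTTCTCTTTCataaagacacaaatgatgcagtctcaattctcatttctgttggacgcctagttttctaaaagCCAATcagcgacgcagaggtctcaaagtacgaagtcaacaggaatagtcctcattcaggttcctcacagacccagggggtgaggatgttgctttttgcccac
Tap1: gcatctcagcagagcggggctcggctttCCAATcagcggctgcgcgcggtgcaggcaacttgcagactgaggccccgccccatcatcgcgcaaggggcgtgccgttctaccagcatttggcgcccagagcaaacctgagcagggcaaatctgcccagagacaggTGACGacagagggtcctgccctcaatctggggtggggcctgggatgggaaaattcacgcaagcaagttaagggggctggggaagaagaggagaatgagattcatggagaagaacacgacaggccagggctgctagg
Erap1: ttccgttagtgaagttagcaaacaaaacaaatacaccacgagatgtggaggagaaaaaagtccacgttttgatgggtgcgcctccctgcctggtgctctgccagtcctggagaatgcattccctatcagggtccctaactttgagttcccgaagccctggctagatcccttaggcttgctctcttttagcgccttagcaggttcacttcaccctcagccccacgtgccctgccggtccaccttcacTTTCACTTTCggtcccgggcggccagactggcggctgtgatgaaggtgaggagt
A match is only a description of letters, and a window without one can still hold a looser form. The windows of H2-K1 and H2-D1 hold tttcacttct after the kB letters, which is near the ISRE letters but not a match. The kB letters were in 0.25% of all 32851 RefSeq windows of this length. Counted by gene, they were in 0.296% of all 27025 genes with a window. They were in 4 of the 26 listed genes with a window, H2-K1, H2-D1, H2-Q6 and H2-Q7. H2-K1, H2-D1 and H2-Q6 did not pass the test, and H2-Q7 had too few counts to be tested. The ISRE letters were in 3.44% of all windows, in 3.99% of all genes and again in 4 of the 26 listed genes. Of these, B2m and Erap1 were higher and H2-T23 and H2-T22 lower in HFCS-labelled libraries. The X box letters were in 20.8% of all windows, 23% of all genes and 10 of the 26 listed genes. The Y box letters were in 37.4% of all windows, 41.1% of all genes and 22 of the 26 listed genes. Genes with the same letters thus differed in direction.

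Total counts were 13108485 to 15340255 per library. Control replicate 1 stood apart from all other libraries on the second principal component, at 29.3 where the others lay between -18.9 and 8.89. Akr1b3, the aldose reductase gene that strongly hypertonic media are known to raise, was at 208 CPM in HFCS-labelled libraries and 7435 CPM in control-labelled ones, so the groups are called by their labels throughout. Whether the labels are exchanged was not tested; if they were, every rise and fall given here would turn round. All 10 macrophage markers were in the table, with a summed level of 2521 to 2630 CPM (a gene's counts relative to the size of its library) in HFCS-labelled libraries and 1957 to 2031 CPM in control-labelled ones, and Mertk among them had no count in the former. Of the 9 tested, 7 were higher and 2 lower, where 22.4% of all tested genes were higher and 22.5% lower. Cd14 (log2 fold change 1.89), Fcgr1 (1.56) and Adgre1 (1.04) were among those that rose, and Csf1r (-0.67) and Cd68 (-0.42) fell. Markers of dendritic cells, which carry much class II, summed to 3.92 to 4.31 CPM against 2.54 to 5.36 CPM and those of B cells to 3.99 to 4.88 CPM against 4.72 to 4.8 CPM. Among the dendritic markers, Itgax fell from 2.57 ± 0.86 to 0.99 ± 0.31 CPM (log2 fold change -1.37 ± 0.37, edgeR adjusted p = 0.0117) and Zbtb46 did not pass (0.72, edgeR adjusted p = 0.0913). The other 5 had too few counts to be tested. In HFCS-labelled against control-labelled libraries, Xcr1 held 16 against 2 counts, Batf3 8 against 3, Clec9a 4 against 0, Flt3 2 against 0 and Ccr7 2 against 8. The labels name no cells other than RAW264.7. The class II genes H2-Eb1, H2-DMa and H2-Oa fell, and whether their values are tied to those of the dendritic markers was not tested. T cell, fibroblast and epithelial markers stayed under 2 CPM in every library. In such bulk samples, fewer cells that express a gene and less RNA of it per cell cannot be told apart.

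Of the 40 genes, 26 passed the filter on low counts and were tested with edgeR, and 14 did not, with 2 to 41 counts each over the 6 libraries. At an adjusted p under 0.05, 5 genes were higher and 9 lower in HFCS-labelled libraries: B2m, Tap1, Tap2, Erap1 and Cd74 rose, and H2-T23, H2-T24, H2-T22, H2-M3, H2-M6-ps, H2-Eb1, H2-DMa, H2-Oa and Tapbp fell. The 14 called of 26 tested compare with 44.9% called among all 14360 tested genes. The background was 22.4% for genes higher and 22.5% for genes lower in HFCS-labelled libraries. At least 2-fold lower were H2-M6-ps, H2-Eb1, H2-T24 and H2-T23, with 6.4% of all genes called in that way, and no listed gene was at least 2-fold higher, against 4.24% of all genes. The groups did not overlap for 14 of the 26 genes, the same 14 that passed, against 54.5% of all tested genes. All 8 called genes with an H2- name were lower, while the called genes without that prefix were higher except Tapbp. H2-M6-ps and H2-Eb1 reached the filter through the control-labelled libraries, so the filter itself favoured a difference, and the counts of calls are given as a description. Without control replicate 1, 6 genes were higher, now with H2-Q4, and 9 lower. The median log2 fold change was -0.12 over the 26 genes and -0.00452 over all tested genes.

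**Figure D1:**
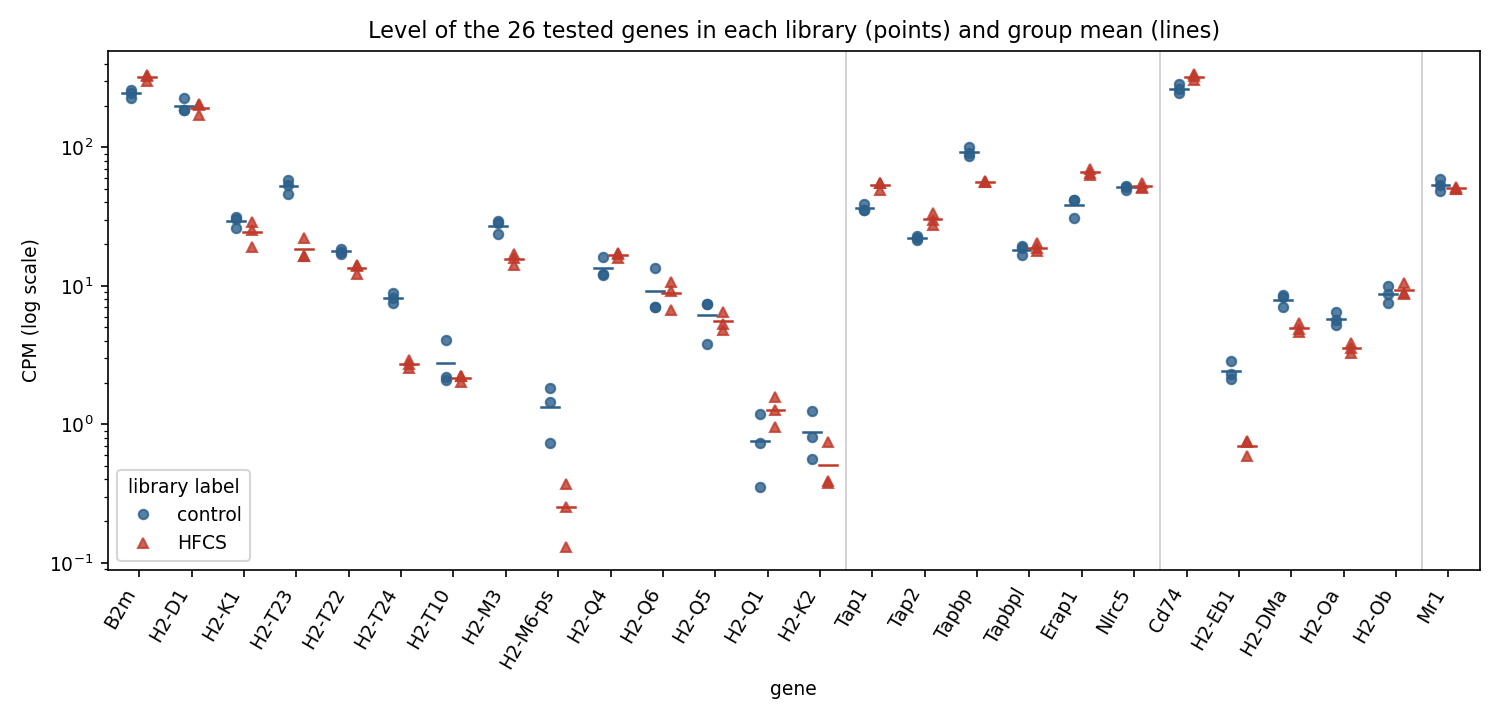
Level of each of the 26 tested genes in each library, in CPM on a log axis, with control-labelled libraries as circles, HFCS-labelled libraries as triangles and group means as lines; grey lines part class I chains, peptide supply and transactivator, class II genes and Mr1. H2-T23 sits at 45.9 to 57.8 CPM in control-labelled and 16.4 to 22.1 CPM in HFCS-labelled libraries, while the points of H2-D1 overlap.

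Among the class I chains, the light chain passed the test as higher. No heavy chain did so in the main fit, with all 6 libraries, TMM scaling and no covariate. B2m (ENSMUSG00000060802, chr2:122147686-122153083 on the plus strand, mm10), which every class I heavy chain needs to reach the surface, was at 303, 331 and 326 CPM in HFCS replicates 1 to 3 and 229, 259 and 246 CPM in control replicates 1 to 3. Every HFCS-labelled library lay above every control-labelled one. The log2 fold change was 0.39 ± 0.07 (SE), or 1.31-fold (edgeR adjusted p = 0.00122). Patl2 overlaps B2m on the other strand and fell by 1.73 on the log2 scale, from 4.84 to 1.45 CPM.

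The classical heavy chains, which present peptide to CD8 T cells, did not pass. H2-D1 (chr17:35262730-35267499, plus strand) was at 202, 204 and 172 CPM in HFCS-labelled libraries and 227, 186 and 185 CPM in control-labelled ones, and the groups overlapped. Its log2 fold change was -0.05, with a 95% interval from -0.26 to 0.16. H2-K1 (chr17:33996017-34000333, minus strand) was at 28.7, 25.1 and 19.0 CPM against 30.6, 26.4 and 31.6 CPM. These groups overlapped as well, and the interval of the log2 fold change of -0.29 ran from -0.61 to 0.04. A p that misses the threshold does not show that they were equal, but both intervals lie below the estimate for B2m. The reference genome is of the C57BL/6 strain, whose class I alleles differ from those of BALB/c, so how many reads of each heavy chain could be placed was not tested and levels set between heavy chains are uncertain. Of all 50-base stretches in the annotated transcripts, 12.8% for H2-D1 and 9.63% for H2-K1 also occur in other genes. H2-L, looked for as a further classical chain, was not in the count table.

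Of the 6 tested heavy chain genes of the T and M regions, 5 fell and H2-T10 did not pass, where 22.5% of all tested genes were lower. H2-T23 (chr17:36029773-36032855, minus strand) encodes the heavy chain of Qa-1, which presents leader peptides of other class I chains to the CD94/NKG2 receptors of natural killer cells. It was at 22.1, 16.4 and 16.5 CPM in HFCS-labelled libraries and 57.8, 53.3 and 45.9 CPM in control-labelled ones. The groups lay far apart, and the level was 2.86-fold lower in HFCS-labelled libraries (log2 fold change -1.52 ± 0.13, edgeR adjusted p = 1.24e-05). Of all 50-base stretches in its annotated transcripts, 14.5% also occur in other genes. H2-T24, a less studied neighbour at chr17:36005695-36020560, was at 2.90, 2.55 and 2.72 CPM against 8.81, 8.15 and 7.55 CPM. All 3 control-labelled libraries were above all HFCS-labelled ones, with a log2 fold change of -1.58 ± 0.17 (edgeR adjusted p = 4.87e-05), and 3.17% of its stretches are shared.

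H2-M3 (chr17:37270220-37274484, plus strand) presents N-formylated peptides of bacteria and mitochondria. It was at 15.8, 17.01 and 14.2 CPM in HFCS-labelled libraries and 29.1, 28.3 and 23.5 CPM in control-labelled ones, with no overlap. The log2 fold change was -0.78 ± 0.12 (edgeR adjusted p = 0.000486). Only 0.576% of its 50-base stretches occur elsewhere. H2-T22, whose product is a ligand of some gamma-delta T cells, was at 13.8, 14.2 and 12.2 CPM against 18.4, 17.1 and 17.6 CPM. The groups did not overlap and the log2 fold change was -0.40 ± 0.12 (edgeR adjusted p = 0.0157), but 53.5% of its stretches are shared, most of them with H2-T10, and without HFCS replicate 3 it no longer passed (log2 fold change -0.32, edgeR adjusted p = 0.0749). H2-T10 itself did not pass, at 2.16 ± 0.11 (SD, n = 3) and 2.77 ± 1.10 CPM. H2-M6-ps, an unprocessed pseudogene, held 11 counts in the HFCS-labelled group and 57 in the control-labelled group (log2 fold change -2.40 ± 0.53, edgeR adjusted p = 0.00401).

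None of the 4 tested genes of the Q region passed, where 44.9% of all tested genes did. H2-Q4 was at 17.2, 16.9 and 15.8 CPM in HFCS-labelled libraries and 16.1, 11.9 and 12.1 CPM in control-labelled ones, where control replicate 1 reached into the range of the HFCS-labelled group. The log2 fold change was 0.31 ± 0.14 (edgeR adjusted p = 0.0915), and without control replicate 1 it was 0.47 and passed (edgeR adjusted p = 0.00601). H2-Q6 was at 8.86 ± 2.06 against 9.12 ± 3.70 CPM, H2-Q5 at 5.53 ± 0.84 against 6.19 ± 2.06 CPM and H2-Q1 at 1.26 ± 0.31 against 0.76 ± 0.41 CPM (SD, n = 3 each). Between 35.0% and 36.5% of the stretches of H2-Q4, H2-Q5 and H2-Q6 occur in other genes, so how the reads of these copies were shared out is uncertain. The pseudogene H2-K2 was under 1 CPM in the mean and did not pass. In all, 0 of the 13 tested heavy chain genes and pseudogenes were higher, 5 were lower and 8 did not pass, and their median log2 fold change was -0.36. Among all tested genes, 22.4% were higher and 22.5% lower.

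**Figure D2:**
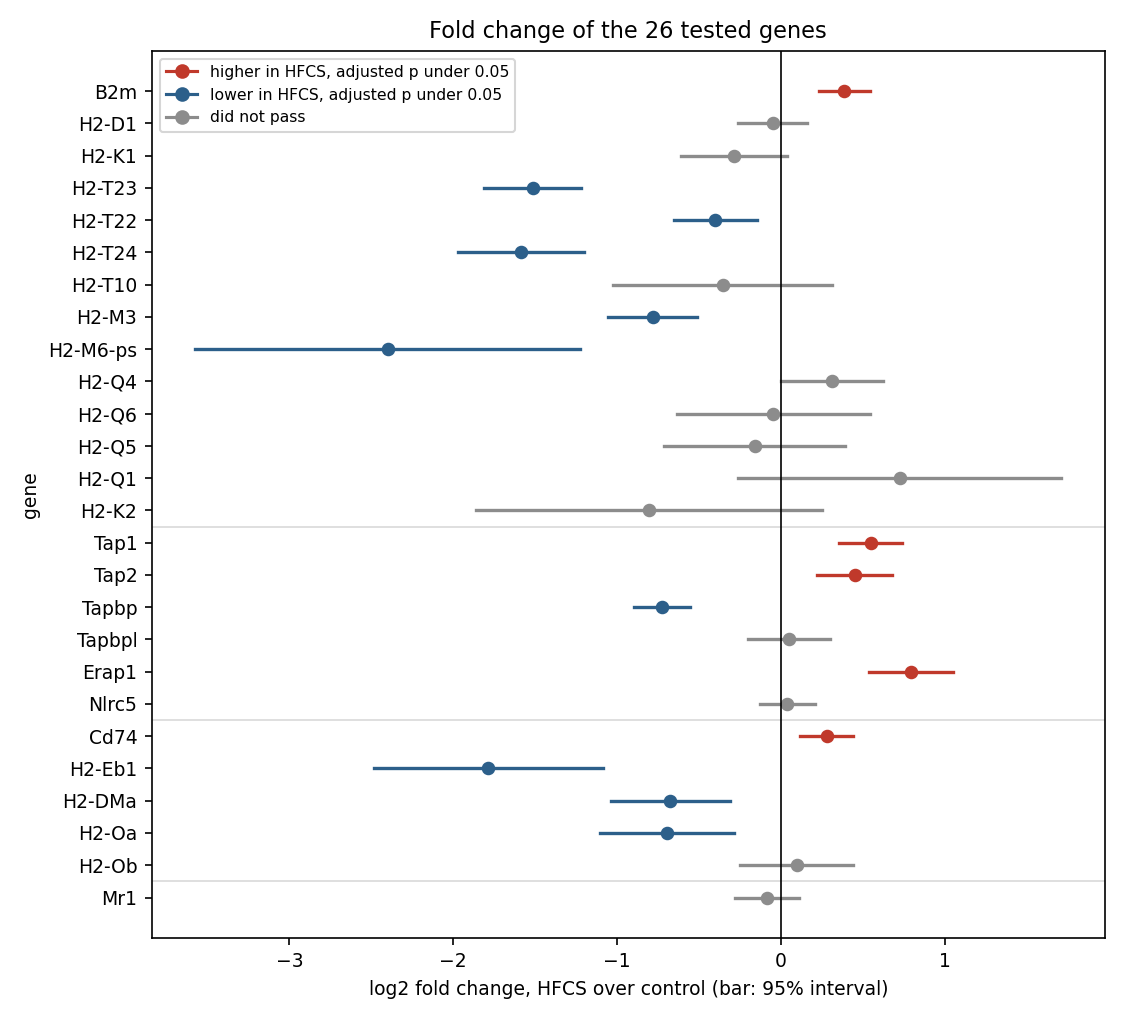
Log2 fold change, HFCS over control, of the 26 tested genes (points) with the 95% interval of the fit (bars), red where higher, blue where lower and grey where the test was not passed. B2m, Tap1, Tap2, Erap1 and Cd74 lie to the right of 0, and the heavy chain genes lie at or to the left of it except H2-Q4 and H2-Q1, whose adjusted p missed the threshold.

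The genes of peptide supply moved in opposite directions. Tap1 (chr17:34187553-34197225, plus strand), a subunit of the peptide transporter, was at 55.6, 55.3 and 49.2 CPM in HFCS-labelled libraries and 38.7, 35.3 and 35.2 CPM in control-labelled ones. Its partner subunit Tap2 (chr17:34203527-34216321, plus strand) was at 33.4, 30.1 and 27.5 CPM against 22.8, 21.5 and 22.2 CPM. Neither gene's groups overlapped. Tap1 rose by 0.55 ± 0.09 (edgeR adjusted p = 0.000527) and Tap2 by 0.45 ± 0.10 on the log2 scale (edgeR adjusted p = 0.00505). Psmb9, which overlaps Tap1 on the other strand and shares its promoter region, was at 4.61 ± 0.65 against 4.57 ± 0.51 CPM and did not pass.

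Erap1 (chr13:74639568-74693201, plus strand), which trims peptides to the length that class I grooves take, had the largest rise of the 26 genes. It was at 65.1, 63.4 and 69.7 CPM in HFCS-labelled libraries and 30.7, 41.7 and 41.9 CPM in control-labelled ones. Control replicate 1 was the lowest, and all HFCS-labelled libraries were above all control-labelled ones. The level was 1.74-fold higher (log2 fold change 0.80 ± 0.12, edgeR adjusted p = 0.000313). Cast overlaps it on the other strand and did not pass (log2 fold change 0.14).

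Tapbp (chr17:33915899-33929288, plus strand), whose product tapasin bridges the transporter and the empty class I molecule, went the other way. It was at 55.9, 56.7 and 55.8 CPM in HFCS-labelled libraries and 101, 91.5 and 86.3 CPM in control-labelled ones. The HFCS-labelled libraries lay within 1 CPM of each other and below all controls. The log2 fold change was -0.73 ± 0.08 (edgeR adjusted p = 3.90e-05). Zbtb22 overlaps Tapbp on the same strand and rose by 0.78, from 26.3 ± 4.49 to 45.3 ± 5.74 CPM, and 23.2% of the 50-base stretches of Tapbp occur in other annotated genes; their part in its value was not tested. Tapbpl, the tapasin-related peptide editor, was at 18.9 ± 1.27 against 18.3 ± 1.48 CPM and did not pass. Nlrc5, which drives class I, B2m, Tap1 and Psmb9 transcription in many cells, was at 51.2, 55.3 and 52.0 CPM against 52.8, 52.0 and 49.2 CPM, and its log2 fold change of 0.04 had an interval from -0.13 to 0.21.

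Ratios within a library, taken per kilobase of transcript, show these shifts without reference to library size. Tap1 over Tapbp was 0.659, 0.646 and 0.584 in HFCS-labelled libraries and 0.254, 0.256 and 0.270 in control-labelled ones. Erap1 over Tapbp was 0.587 ± 0.033 against 0.207 ± 0.049 (SD, n = 3 each). The ratios of Tap1 to Tap2, which form a heterodimer, were 1.22 ± 0.06 and 1.13 ± 0.04 and overlapped. B2m over the sum of H2-K1 and H2-D1 was 4.005, 4.39 and 5.18 against 2.70, 3.71 and 3.47. H2-T23 over H2-D1 was 0.085 ± 0.013 against 0.235 ± 0.018. All of these but Tap1 over Tap2 kept the groups apart.

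**Figure D3:**
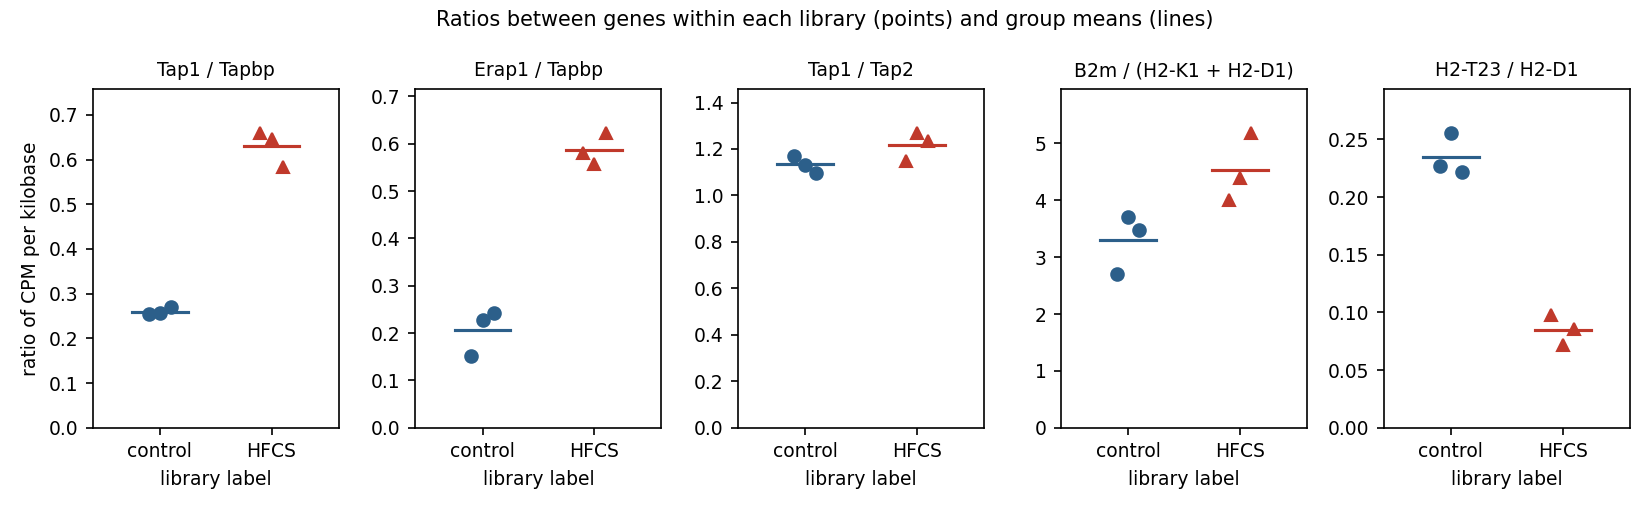
Ratios between genes within each library, in CPM per kilobase over CPM per kilobase, with the libraries as points, group means as lines and each axis starting at 0. Tap1 over Tapbp lies at 0.254 to 0.270 in control-labelled and 0.584 to 0.659 in HFCS-labelled libraries, while Tap1 over Tap2 overlaps between the groups.

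Of the class II genes in the count table, the invariant chain was abundant and the peptide-binding chains H2-Eb1 and H2-Aa were near the limit of detection. H2-Ab1, H2-Ea, H2-Eb2 and H2-DMb1 were not in the count table, so nothing is said of them here. Cd74 (chr18:60803848-60812646, plus strand) was at 326, 336 and 304 CPM in HFCS-labelled libraries and 284, 246 and 264.6 CPM in control-labelled ones. The groups did not overlap, but HFCS replicate 3 and control replicate 1 were close, and the log2 fold change was 0.28 ± 0.07 (edgeR adjusted p = 0.00978). H2-Eb1, the beta chain of I-E, was at 0.743, 0.589 and 0.760 CPM against 2.29, 2.86 and 2.12 CPM, from 31 and 102 counts. It fell by 1.79 ± 0.32 on the log2 scale (edgeR adjusted p = 0.00106). H2-Aa, the alpha chain of I-A, was not tested, with 2, 0 and 2 counts in HFCS-labelled libraries and 8, 6 and 17 counts in control-labelled ones. With no filter on low counts it was lower (log2 fold change -2.88, edgeR adjusted p = 0.0105), the only one of the 14 untested genes to pass in that fit.

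H2-DMa, a chain of the peptide exchanger H2-DM, was at 4.61, 5.43 and 4.88 CPM in HFCS-labelled libraries and 8.53, 6.97 and 8.33 CPM in control-labelled ones. It fell by 0.68 ± 0.16 on the log2 scale with no overlap (edgeR adjusted p = 0.00684). H2-Oa, a chain of H2-DO that holds H2-DM back, was at 3.27, 3.53 and 3.86 CPM against 5.62, 5.21 and 6.49 CPM. It fell by 0.70 ± 0.19 (edgeR adjusted p = 0.0107), again with no overlap. H2-Ob, the other chain of H2-DO, did not pass, at 9.35 ± 1.03 against 8.73 ± 1.197 CPM. Cd74 over H2-DMa, per kilobase, was 134 ± 10.3 in HFCS-labelled libraries and 68.7 ± 3.59 in the controls. The class II transactivator Ciita was not tested, at 3, 6 and 3 counts against 2, 1 and 2 counts.

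Mr1, which shows vitamin B metabolites to mucosal-associated invariant T cells, was at 52.1, 49.97 and 49.95 CPM in HFCS-labelled libraries and 48.6, 53.1 and 59.4 CPM in control-labelled ones. The groups overlapped, and its log2 fold change of -0.08 had an interval from -0.28 to 0.11. Cd1d1, which shows lipids to natural killer T cells, held 1, 1 and 1 counts against 3, 2 and 8 counts. H2-Q2 held 1, 4 and 1 counts against 10, 6 and 3 counts. H2-Ke6, a dehydrogenase gene that has the prefix but encodes no MHC chain, held 4, 0 and 2 counts against none. The other untested genes were H2-Q7, H2-Q10, H2-Bl, H2-T-ps, H2-M5, H2-M10.1, H2-M10.2, H2-DMb2 and H2-Pb, all with low counts in both groups.

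Per kilobase, the order of the levels began alike in both groups. In control-labelled libraries B2m stood at 285 ± 17.9 CPM per kilobase, Cd74 at 158 ± 11.51, H2-D1 at 77.4 ± 9.32 and Tapbp at 25.6 ± 2.03 (SD, n = 3). The next genes, H2-M3 at 18.8 ± 2.12 and H2-T23 at 18.1 ± 2.09, did not differ beyond their spread. H2-K1 at 10.04 ± 0.94 and Mr1 at 8.98 ± 0.91 were such neighbours too. In HFCS-labelled libraries Tap1 at 9.75 ± 0.66 and Erap1 at 9.08 ± 0.45 had moved up to places 6 and 7. Mr1 at 8.47 ± 0.20 and H2-K1 at 8.26 ± 1.67 came close behind. H2-T23 had left the first 12 places, but at 6.355 ± 1.13 it did not differ beyond the spread from H2-Q4 at 6.412 ± 0.30 in place 12. The 40 genes together took 0.133 ± 0.00430% of all counts in HFCS-labelled libraries and 0.118 ± 0.00435% in control-labelled ones. The libraries' shares did not overlap. A two-sided exact permutation test of 3 against 3 libraries cannot give a p under 0.1, so it could not decide whether they differed. The genes were also chosen with earlier results known, so the shares are only a description.

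Other genes of antigen processing were mixed. Their counts are to be read beside the 22.4% of all tested genes that were higher and the 22.5% that were lower. A list of 7 genes held immunoproteasome subunits, proteasome activators and an assembly factor. Psme3, an activator cap of the nuclear proteasome, rose by 0.35, Pomp, the assembly factor, fell by 0.34, and 5 did not pass. The catalytic immunoproteasome subunits, which interferon-gamma is known to raise, were among these: Psmb8 had a log2 fold change of 0.10, Psmb9 of 0.01 and Psmb10 of 0.30. Of the 3 constitutive catalytic subunits, Psmb6 rose by 0.81 (94.0 ± 10.3 against 53.7 ± 11.1 CPM) and 2 did not pass. Of 13 genes of class I folding and peptide trimming, 2 were higher, 5 lower and 6 did not pass, with a median of -0.17. The chaperone Calr (-0.55) and the oxidoreductase Pdia3 (-0.35), which share the loading complex with tapasin, fell, as did the peptidase Tpp2 (-0.35), and the translocon subunit Sec61a1 rose by 0.53. Of 11 class II processing genes 3 were higher and 4 lower: the protease Lgmn (-0.59), the tetraspanin Cd9 (-0.58) and the protease inhibitor Cst3 (-0.32) fell, the protease Ctsb rose by 0.29, and Ctss, which degrades the invariant chain, did not pass (-0.10).

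Of 12 tested factors that act on MHC promoters, 7 were higher, 1 lower and 4 did not pass, with a median of 0.31. For this list and the next, the comparison is 22.4% of all tested genes higher and 22.5% lower. Spi1, the myeloid factor PU.1 (0.56), Creb1 (0.50) and Nfya, a subunit of the Y box factor (0.39), rose, while Rfx5, the X box subunit, fell from 45.2 ± 2.68 to 31.4 ± 2.36 CPM (log2 fold change -0.53 ± 0.09, edgeR adjusted p = 0.00101). Of 13 interferon-gamma signalling genes 6 were higher, 2 lower and 5 did not pass, with a median of 0.08. The receptor chain Ifngr1 (0.58), the inhibitors Socs1 (2.61) and Ptpn2 (0.38) and the factor Irf1 (0.51) rose. Socs1 was low, at 2.24 ± 1.11 against 0.36 ± 0.19 CPM, and reached the filter through the HFCS-labelled libraries, which favoured a difference.

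Other genes lie between the H2- genes on chromosome 17. The first to the last H2- gene span 3.3 Mb, with 145 other genes in the table. Of the 91 tested, 29 were higher, 16 lower and 46 did not pass, with a median of 0.09. Over all tested genes, 22.4% were higher and 22.5% lower. Among those with a mean of at least 5 CPM whose groups did not overlap, the largest rises were of Ppp1r10, a phosphatase subunit (log2 fold change 1.70), the cytokine Tnf (1.503) and D17H6S53E (1.32), and the largest falls of 4833427F10Rik (-0.68), the matrix gene Tnxb (-0.65) and Vars2, a mitochondrial tRNA synthetase gene (-0.57). Ppp1r10, which lies before H2-T24 on the chromosome, rose from 38.6 to 125 CPM while H2-T24 fell from 8.17 to 2.72 CPM. Whether neighbours and H2- genes differ as groups was not tested.

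**Figure D4:**
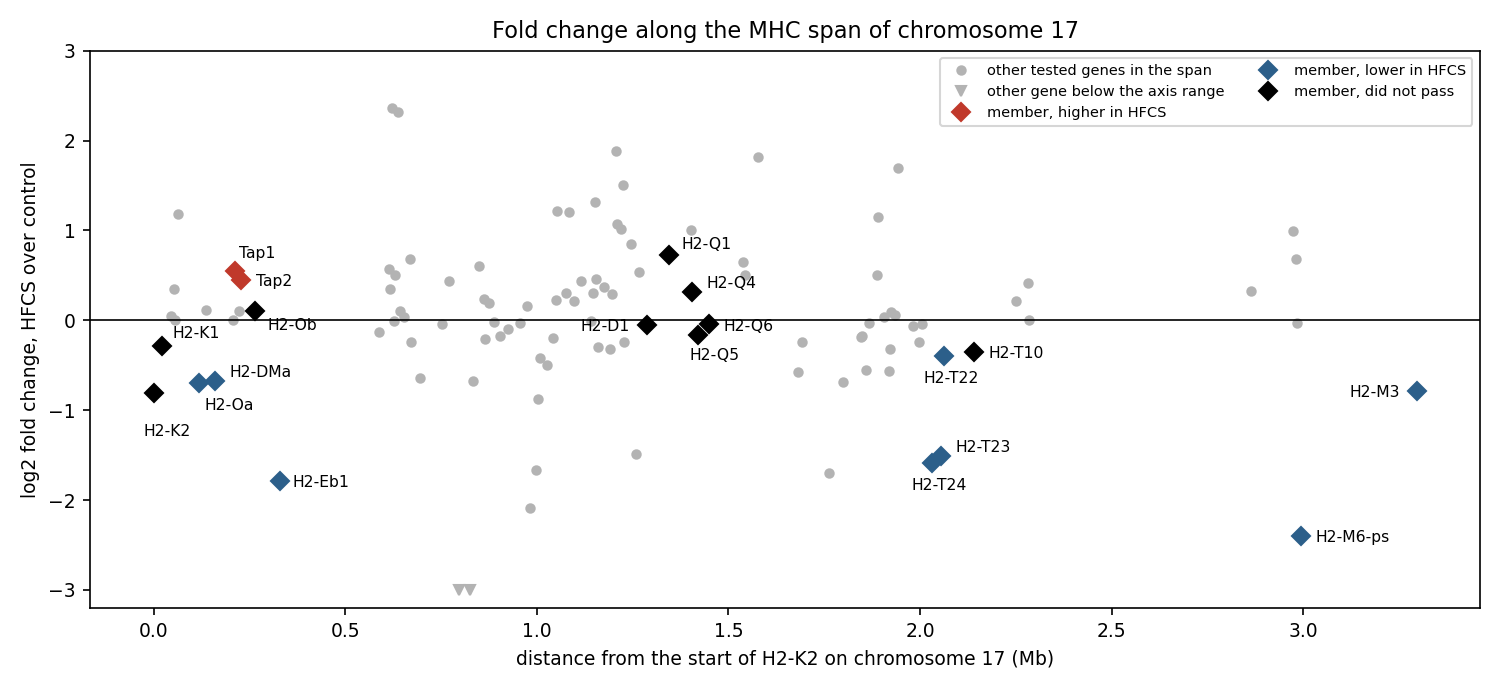
Log2 fold change, HFCS over control, of the 91 other tested genes (grey) and of the listed genes (diamonds) by distance from the start of H2-K2 along chromosome 17, in Mb; Tapbp lies before this start and is not drawn. H2-T24 and H2-T23 lie near -1.58 and -1.52 while Tap1 and Tap2 are above 0; Tnxa and Cyp21a1, named here after their values were seen, are drawn at the lower edge because they fall below the axis range.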

How the data were processed

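RNA of 3 HFCS-labelled and 3 control-labelled RAW264.7 samples had been sequenced, and the authors deposited a table of raw read counts by gene, per the file headers; its values are whole and were not scaled. The submitters' processing notes name CASAVA, HISAT2 2.0.5, featureCounts 1.5.0-p3 and build mm10. The sources used here do not give the annotation release or strand setting, so reads of overlapping genes, among them 15 of the 40 described, cannot be told apart. Symbols were matched for 24344 of 24379 identifiers. Positions are the deposited ones, and 30 of the 40 genes have the same position in GENCODE M21, whose transcripts gave the 50-base stretches shared with other genes.

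Groups came from the sample titles. All genes were fitted together with edgeR 4.0.16 in R 4.3.3 (filterByExpr with a minimum count of 10, TMM, glmQLFit and glmQLFTest, no covariate), which tested 14360 genes and removed 10019. P-values were adjusted by Benjamini-Hochberg over all of these, with a threshold of 0.05. CPM used TMM-scaled library sizes, which were 13108485 to 15340255 counts before scaling. CPM per kilobase divided by the merged length of all GENCODE M21 exons of a gene. The common biological coefficient of variation was 0.0984. On simulated counts of this comparison, with 13944 genes tested, the fit recovered 56.2% of genes changed 1.5-fold, 75% of those changed 2-fold, 95.7% of those changed 3-fold and 100% of those changed 4-fold, with 9 false calls among 166. The data themselves had 6447 calls. With so few changed genes in the simulation, a smaller p was needed to pass, so its recovery does not carry over to these data.

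The genes and lists were chosen with earlier results of these data known. All listed genes with a mean of at least 1 CPM or past the threshold were to be named with values, with up to 4 called genes of each other list by smallest adjusted p, plus Psmb8, Psmb9, Psmb10, Irf1, Rfx5 and Ctss, and the 3 highest and 3 lowest called neighbours with at least 5 CPM and groups that did not overlap. A gene that the rule names is not reported here. Alternatives were other scalings, DESeq2 1.42.0, limma-voom (limma 3.58.1), other filters, a replicate block, a 2-fold limit and each library left out.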

Additional observations from a re-analysis of the deposited data

How the results depend on the processing

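Over 14 alternative settings, 25 of the tested genes kept their side of the threshold in 346 of 350 results. H2-Q4 passed with scaling by library size only (edgeR adjusted p = 0.0402), with the replicate block (0.048) and without control replicate 1 (0.00601), and H2-T22 did not pass without HFCS replicate 3 (0.0749). H2-D1, H2-Q6, H2-T10 and Tapbpl changed sign in some settings without passing. The highest adjusted p was 0.0472 for Cd74 and 0.0491 for H2-Oa. A limit of at least 2-fold left 1528 genes called, with 0 of the listed genes higher and 4 lower. With library size only, 60.2% of all calls were higher, 3975 of 6599, against 3223 of 6447 with TMM, and the median of all genes moved to 0.08. The labels do not say whether the replicate numbers pair the samples. For HFCS replicates 1 to 3, deviations from the group mean correlated at 0.17, -0.06 and 0.19 with the same-numbered control. The best correlations with another control were -0.09, 0.16 and 0.16, so these values do not settle it. With the number as a replicate block 7152 genes were called, against 6447, and 6 listed genes were higher and 9 lower. Leaving out each library in turn gave 5115 to 7550 called genes, with 5 to 6 listed genes higher and 8 to 9 lower. Without Cd74, the listed genes held 0.0997% of counts in HFCS-labelled and 0.0926% in control-labelled libraries. B2m, which also rose, was not left out. These shares used library totals without TMM, the scaling at which the median of all genes was 0.08. Of the 14 untested genes, H2-Aa alone passed with no filter on low counts. In the simulation, where far fewer genes changed than were called here, the fit missed many 1.5-fold changes. How many it missed in these data was not tested.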

Other observations

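Of 6 tested class I-like genes outside the listed set, 4 were higher in HFCS-labelled libraries, 0 lower and 2 did not pass, where 22.4% of all tested genes were higher, with a median log2 fold change of 0.63. Raet1d and Raet1e, ligands of the activating receptor NKG2D of natural killer cells, were at 16.1 ± 1.40 and 21.2 ± 2.08 CPM in HFCS-labelled and 7.73 ± 0.58 and 10.9 ± 1.71 CPM in control-labelled libraries (SD, n = 3 each). Raet1d rose by 1.05 ± 0.13 (edgeR adjusted p = 0.000118) and Raet1e by 0.97 ± 0.14 on the log2 scale (edgeR adjusted p = 0.000327). Ulbp1, another NKG2D ligand, rose by 0.46 ± 0.08, from 118 to 162 CPM (edgeR adjusted p = 0.00123). Procr, the protein C receptor, which has a class I-like fold, rose by 0.72 ± 0.23 (edgeR adjusted p = 0.0262). Raet1d and Raet1e are closely related copies, so how their reads were shared out is uncertain. H2-T23, whose product engages the CD94/NKG2 receptors, fell in the same libraries, from 52.3 ± 6.04 to 18.4 ± 3.27 CPM.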
